A study of Mus musculus with 7 samples.

Results

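The Hox genes of mouse hindlimb tendon were followed as a family. The members are the 39 protein-coding genes whose symbol is Hoxa, Hoxb, Hoxc or Hoxd followed by a paralogue number. They were chosen by symbol alone, out of 42689 genes in the files, and all 39 are listed in every file. RNA was sequenced from 7 libraries of tissue taken along the Achilles tendon, between the gastrocnemius muscle and the heel bone, from mice of C57BL/6 background. The tenotomy group (n = 2) was the left leg 3 weeks after an injury that combined a partial-thickness scald burn of the back (an aluminium block at 60 °C for 18 s, over 30% of body surface) with transection of the left Achilles tendon. The contralateral group (n = 3) was the uncut right leg of mice given that same burn and tenotomy, at the same 3 weeks, so both of these groups carry the burn, the isoflurane anaesthesia and the buprenorphine given for pain. The uninjured group (n = 2) came from wild-type mice that had neither burn nor tenotomy. The labels give no age or sex and do not say whether libraries are separate or pooled animals, or whether left and right legs came from the same mice. P-values below therefore measure only the spread between these libraries, which may be technical.

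Hox genes encode homeodomain transcription factors that tell cells where they lie along the body axis and along the limb. They sit in clusters, and genes with the same number in different clusters are paralogues, descended from a common ancestral gene and partly able to replace each other. Genes of high number, from paralogue 9 upwards, lie at the posterior end of each cluster: in the limb they are needed in turn for the upper, middle and end segments. Hoxc9, Hoxc10 and Hoxc11 are known as genes of the hindlimb rather than the forelimb bud, and fibroblasts of adult skin, tendon and muscle keep a Hox pattern that reflects where in the body they came from.

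The part of each gene that encodes the DNA-binding homeodomain, the homeobox, is 180 bases long and is the stretch most alike between members. The homeoboxes of paralogue group 10 are printed because the results turn on telling Hoxc10 apart from its paralogues. Capitals mark every position at which these 3 paralogues do not all carry the same base, and sequences are from the coding strand, 5′ to 3′, of the GENCODE M21 transcripts on GRCm38. They lie in coding sequence at chr6:52232554-52232733 (Hoxa10, minus strand), chr15:102970848-102971027 (Hoxc10, plus), and chr2:74694141-74694320 (Hoxd10, plus).
Hoxa10: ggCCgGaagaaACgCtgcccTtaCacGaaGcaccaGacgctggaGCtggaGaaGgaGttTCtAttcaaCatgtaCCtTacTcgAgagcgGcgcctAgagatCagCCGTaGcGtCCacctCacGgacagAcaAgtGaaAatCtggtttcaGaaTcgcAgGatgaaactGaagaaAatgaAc
Hoxc10: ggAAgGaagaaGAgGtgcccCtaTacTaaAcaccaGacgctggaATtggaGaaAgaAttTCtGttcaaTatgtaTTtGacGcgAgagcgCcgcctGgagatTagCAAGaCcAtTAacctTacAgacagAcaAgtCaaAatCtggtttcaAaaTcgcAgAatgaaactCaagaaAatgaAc
Hoxd10: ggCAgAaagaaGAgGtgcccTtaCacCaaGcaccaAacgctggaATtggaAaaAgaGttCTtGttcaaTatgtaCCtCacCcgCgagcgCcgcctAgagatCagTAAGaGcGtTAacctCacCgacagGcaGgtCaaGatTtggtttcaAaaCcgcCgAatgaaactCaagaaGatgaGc

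The Hoxa10 and Hoxc10 homeoboxes matched at 80.6% of their bases, with no shared run longer than 14 bases. Hoxc10 and Hoxd10 matched at 82.8%, with a longest shared run of 16 bases. Hoxd4, whose transcripts gave 2 distinct homeoboxes, was left out of the comparison across the family. Among the other members, pairs with the same paralogue number matched at a median of 80.6% (range 67.2 to 93.9, 39 pairs). All other pairs matched at 60.6% (46.1 to 88.9, 664 pairs). Over whole transcripts, 0.0% of the 31-base words of Hoxa10 occurred in another gene, against 7.3% for Hoxc10, all of them in Hoxc5. Those genes overlap: 8.7% of the exonic bases of Hoxc10 lie in exons of Hoxc5 on the same strand. Larger shares were found at other overlaps: 35.0% of the exonic bases of Hoxa11 lie opposite the antisense transcript Hoxa11os and 52.9% of those of Hoxb3 opposite Hoxb3os. Smaller antisense shares were found for Hoxb2 (27.3% of exonic bases), Hoxa7 (20.4%) and Hoxa4 (16%), and Hoxa3 shared 27.1%, of which 8.0 percentage points lay on its own strand. Strand is not stated for these counts, so a gene and its antisense partner cannot be told apart, and the values of these members are uncertain. Hoxd3 and Hoxd4 are uncertain for another reason: 62.8% and 52.3% of their exonic bases lie in exons of each other or of neighbouring genes, nearly all on the same strand.

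Between 25927171 and 36725106 estimated counts were assigned per library, but 5 features took 76.4% to 81.4% of them, leaving 4934057 to 8375626 counts for everything else. All 14 listed tendon genes passed the filter on low counts, which does not by itself test the tendon label. They include Scx, the transcription factor of tendon progenitors, and Tnmd, a marker of mature tendon cells. The summed level of the 14 was 1044 to 1489 CPM (counts scaled to 1e+06 of the TMM-adjusted library total) in contralateral, 5365 and 5395 in tenotomy, and 4932 and 4210 in uninjured libraries. The uninjured libraries did not resemble each other. Summed over 18 skeletal muscle markers, the library labelled uninjured replicate 1 held 2504 CPM, near the 1954 and 1959 of the tenotomy libraries, while uninjured replicate 2 held 16970, near the 22960 to 25300 of the contralateral libraries. In the contralateral libraries and uninjured replicate 2 the muscle sums exceeded the tendon sums. Tendon is thus the name of the sampled tissue here, which held muscle RNA as well. For 14 leukocyte markers the values were 149.5 and 42.91 in the uninjured libraries, 146.8 and 149.7 in tenotomy and 33.52 to 42.26 in contralateral libraries. The results on Hox genes against the uninjured group are therefore also given without each of its libraries.

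Hox RNA was scarce but broadly present. The 39 members together had 688, 913 and 805 counts in contralateral, 753 and 637 in tenotomy, and 628 and 782 in uninjured libraries. At least 10 counts in at least 2 libraries were found for 25 of the 39 members, which are called detected below. The count was 31 with a minimum of 5 counts and 11 with a minimum of 30. Per library, between 18 and 23 members reached 10 counts, and 14 members did so in all 7 libraries. By cluster, 7 of 11 Hoxa, 6 of 10 Hoxb, 7 of 9 Hoxc and 5 of 9 Hoxd genes were detected. No Hoxb gene reached 10 counts in every library, against 5 Hoxa, 6 Hoxc and 3 Hoxd genes.

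Most genes of the posterior end, paralogues 12 and 13, were near or at 0. Hoxb13 and Hoxd12, and at the anterior end Hoxd1, had no count in any library, which allows a level of up to 3 counts, or 0.0816 to 0.112 CPM per library. Hoxc12 had 0, 0 and 1 count in contralateral, 0 and 0 in tenotomy, and 0 and 1 in uninjured libraries. Hoxc13 had 0, 2 and 1, then 2 and 2, then 2 and 2 counts. Hoxd13, which with Hoxa13 patterns the digits, had 1 count in 1 contralateral library and 0 in the others. Hoxa13 was thus the one detected member of paralogue group 13, with 7, 18 and 13 counts in contralateral, 7 and 2 in tenotomy, and 7 and 9 in uninjured libraries. At such depth a member at 0 cannot be called absent.

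On the length-normalised scale (TPM, abundance per transcript length as deposited, summed per gene), the level was highest for Hoxa10 and Hoxc10. Their mean over the 7 libraries was 0.251 TPM for Hoxa10 and 0.233 TPM for Hoxc10. Hoxc6, which marks the thoracic region of the trunk, followed at 0.178 TPM and Hoxd8 at 0.169 TPM. The place of Hoxc6 is uncertain, as its value includes short transcripts not annotated as coding. These have 896 and 538 bases and 2.0 to 12.3 counts each per library. Without correction for length, its mean was 0.941 CPM, against 2.18 CPM for Hoxd8. In the Hoxb cluster the highest was Hoxb3, at 0.0637 TPM, with the caution on Hoxb3os above. The lowest mean in the Hoxa cluster was that of Hoxa2, a gene of the hindbrain, at 0.011 TPM, with 2, 5 and 4 counts in contralateral, 1 and 4 in tenotomy, and 4 and 3 in uninjured libraries. The order of neighbours is not firm: in contralateral libraries Hoxa10 stood at 0.232 ± 0.111 TPM (SD, n = 3) and Hoxc10 at 0.32 ± 0.0436, and in tenotomy libraries at 0.269 ± 0.0094 (SD, n = 2) and 0.134 ± 0.0348, so their order differed between these groups.

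**Figure D1:**
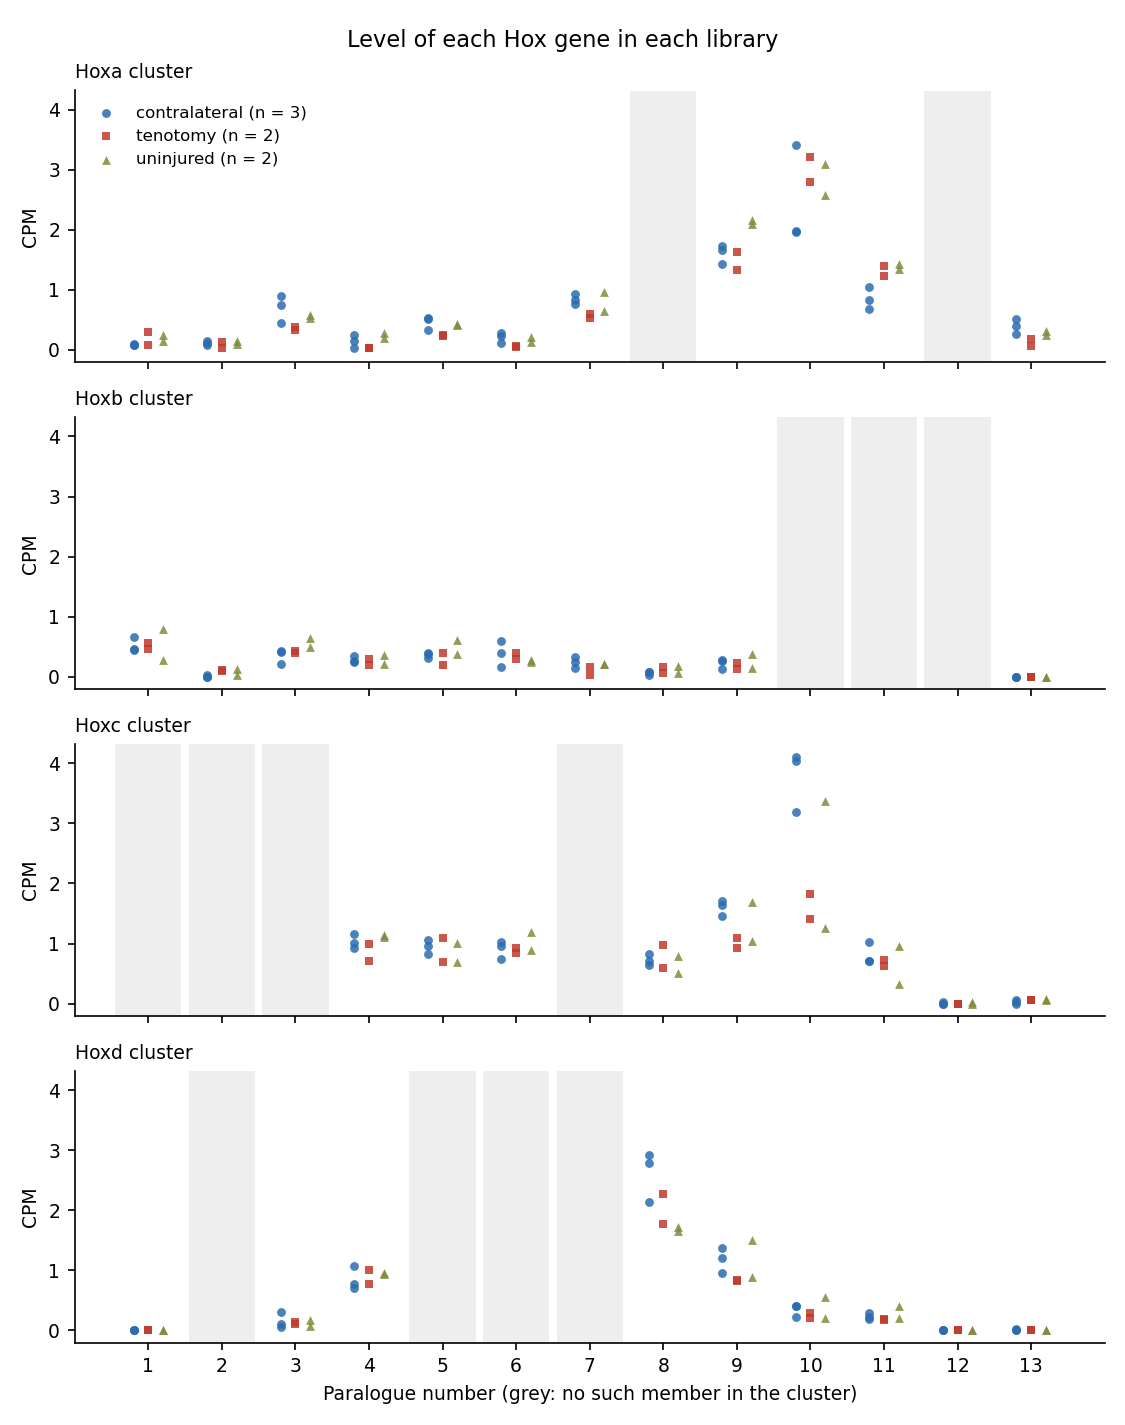
CPM (linear axis) of each of the 39 Hox genes against paralogue number, 1 panel per cluster, 1 point per library, with colour and shape for the group. Levels peak at paralogue 10 in the Hoxa and Hoxc clusters and at 8 in the Hoxd cluster, and stay under 1 CPM in the Hoxb cluster. CPM is not corrected for gene length.

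On the CPM scale, which is not corrected for length, posterior genes supplied about as many Hox counts as all others together. Of the summed Hox CPM, paralogues 9 to 13 made up 53.0% ± 1.17 (SD over the 3 contralateral libraries), 51.5% ± 0.888 (2 tenotomy libraries) and 53.1% ± 5.34 (2 uninjured libraries). Paralogues 5 to 8 made up 30.4% ± 0.367 in contralateral, 30.3% ± 1.31 in tenotomy and 27.4% ± 4.5 in uninjured libraries. These shares overlapped between contralateral and tenotomy libraries, while paralogues 1 to 4 made up 15.7% to 17.5% in contralateral and 17.9% and 18.5% in tenotomy libraries. The Hoxb cluster held the smallest share, 8.32% to 11.5% in every library, and the Hoxa and Hoxc clusters the largest.

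Summed by cluster, the Hoxc level stood lower at the tenotomy site. It was 8.58, 10.6 and 10.4 CPM in the contralateral libraries, 6.64 and 6.97 CPM at the tenotomy site, and 6.50 and 9.64 CPM in the uninjured libraries. The tenotomy values lie below all contralateral ones and inside the uninjured range, a log2 ratio of -0.53 against contralateral and -0.25 against uninjured. Most of the difference from contralateral lay in Hoxc9 to Hoxc13, and within them in Hoxc10, whose mean was 3.78 CPM in contralateral and 1.62 CPM in tenotomy libraries. For Hoxc9 to Hoxc13 together, the sum was 5.36, 6.52 and 6.83 CPM in contralateral and 3.02 and 3.73 CPM in tenotomy libraries. Hoxc5, Hoxc6 and Hoxc8 together differed by a log2 ratio of -0.01. The Hoxd sum was 5.58, 5.83 and 4.76 CPM in contralateral and 4.22 and 4.33 CPM in tenotomy libraries, without overlap and with a log2 ratio of -0.34. Summed per length the Hoxd values overlapped, at 0.481, 0.447 and 0.334 TPM in contralateral and 0.349 and 0.336 TPM in tenotomy libraries. The Hoxa and Hoxb sums overlapped between these groups, each with a log2 ratio of -0.07. The Hoxa sum joined parts that differed in direction. Its paralogues 1 to 4 (log2 ratio -0.66) and 5 to 8 (-0.8) were lower in both tenotomy than in all contralateral libraries. For paralogues 5 to 8 the sums were 1.27, 1.51 and 1.73 CPM in contralateral and 0.898 and 0.833 CPM in tenotomy libraries. Hoxa paralogues 9 to 13 overlapped, with a log2 ratio of 0.16. No test was made on sums over members.

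**Figure D2:**
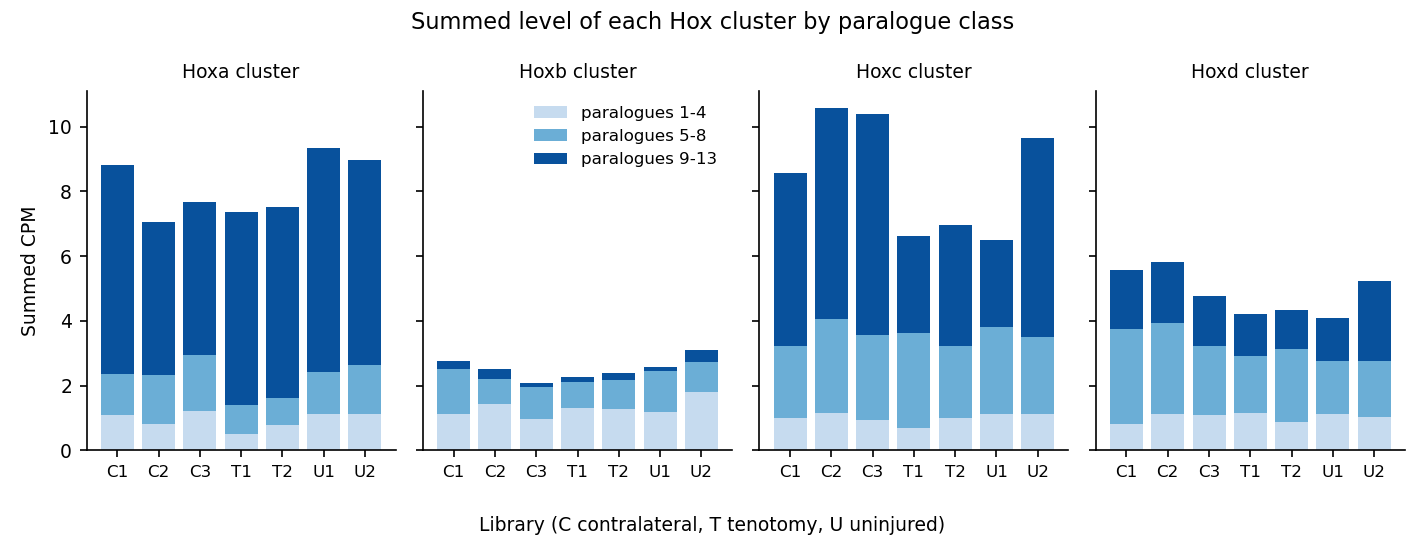
Summed CPM of each Hox cluster in each of the 7 libraries (bars from 0), stacked by paralogue class; C is contralateral, T tenotomy and U uninjured. The dark 9 to 13 segment of the Hoxc panel is 5.36 to 6.83 CPM in contralateral libraries and 3.02 and 3.73 CPM at the tenotomy site, while that of the Hoxa panel is 4.72 to 6.45 CPM and 5.96 and 5.90 CPM.

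The first comparison, tenotomy against contralateral, asks how the injured tendon differs from the uncut tendon of mice with the same burn. Hoxc10, a regulator of hindlimb and lumbar identity, fell at the tenotomy site and was the only member to pass. No member was called higher in this fit, although 5 had a log2 fold change above 0, against 18 below 0. Of the 23 members with enough counts to be tested, 1 was called (4.35%), while 29% of all 16028 features tested were called in this comparison, 13.6% higher and 15.4% lower. The members' share of calls was thus below that of all features, at low counts.

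Hoxc10 (chr15:102966796-102971893, plus strand) had 85, 142 and 133 estimated counts in the contralateral libraries, 52 and 55 at the tenotomy site, and 35 and 98 in the uninjured libraries. Scaled, that was 3.19, 4.04 and 4.11 CPM, then 1.41 and 1.83 CPM, then 1.26 and 3.37 CPM. Both tenotomy libraries lay below every contralateral library, while the uninjured libraries lay on either side, replicate 1 below the tenotomy values and replicate 2 inside the contralateral range. The level at the tenotomy site was 0.427 of the contralateral level, a log2 fold change of -1.23 ± 0.376 (SE) with an edgeR adjusted p of 0.045. The exact 95% Poisson intervals of the nearest libraries were 67.9 to 105 counts in contralateral replicate 1 and 41.4 to 71.6 in tenotomy replicate 2. They overlap slightly as counts, but these libraries differ in size (3 counts are 0.112 and 0.1 CPM). That overlap is therefore not one of scaled levels, and the intervals cover counting error only. In bulk tissue, fewer cells that express a gene and less RNA per cell cannot be told apart.

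The call on Hoxc10 lies close to the threshold, and with TPM-scaled counts in place of estimated counts it was lost (-1.22, edgeR adjusted p 0.0643). Leaving out a contralateral or a tenotomy library gave log2 fold changes of -1.43 to -1.05 with edgeR adjusted p-values of 0.0766 to 0.244, and in each of those fits none of all genes tested was called. Without uninjured replicate 1, which does not enter the comparison but does enter the shared estimate of spread, Hoxc10 was at -1.23 with an edgeR adjusted p of 0.00016, and without uninjured replicate 2 at -1.24 with 0.000155. Contralateral replicates 1 to 3 and tenotomy replicate 1 carry title numbers of 1 series, and within it Hoxc10 was at 3.19 to 4.11 CPM against 1.41 CPM. With the title series as a covariate the edgeR log2 fold change was -1.42. That contrast rests on tenotomy replicate 1 alone, because no contralateral library shares a series with tenotomy replicate 2.

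The neighbours of Hoxc10 in its cluster did not pass the test, and whether they differ from Hoxc10 in response was not tested. Hoxc9, which like Hoxc10 is active in the hindlimb bud, stood at 1.46, 1.71 and 1.64 CPM in contralateral, 0.925 and 1.10 CPM in tenotomy, and 1.04 and 1.69 CPM in uninjured libraries. Its tenotomy values lie below all contralateral ones, yet at -0.67 ± 0.248 (SE) the edgeR adjusted p was 0.0782. Hoxc11 stood at 0.712, 0.711 and 1.02 CPM in contralateral, 0.626 and 0.733 CPM in tenotomy, and 0.323 and 0.963 CPM in uninjured libraries. These groups overlap (-0.27 ± 0.419, edgeR adjusted p 0.667). In all 3 of these posterior Hoxc genes, uninjured replicate 1 was lower than replicate 2.

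In the Hoxa cluster the posterior genes did not share a direction. Hoxa9 stood at 1.72, 1.42 and 1.67 CPM in contralateral, 1.33 and 1.63 CPM in tenotomy, and 2.16 and 2.10 CPM in uninjured libraries, with an edgeR log2 fold change of -0.12 ± 0.183 at the tenotomy site. Hoxa10, which patterns the upper leg, stood at 3.41, 1.96 and 1.98 CPM in contralateral, 3.21 and 2.80 CPM in tenotomy, and 3.09 and 2.58 CPM in uninjured libraries (0.31 ± 0.262, edgeR adjusted p 0.411). Contralateral replicate 1 was the highest Hoxa10 library of all 7, and the other contralateral libraries the lowest. Hoxa11, needed for the lower leg bones, was the only tested member whose tenotomy libraries both lay above all contralateral ones. It stood at 1.05, 0.825 and 0.680 CPM in contralateral, 1.22 and 1.40 CPM in tenotomy, and 1.44 and 1.34 CPM in uninjured libraries (0.63 ± 0.232, edgeR adjusted p 0.0772). Its antisense partner Hoxa11os had 10, 17 and 12 counts in contralateral and 25 and 15 in tenotomy libraries, and the part of its reads in the Hoxa11 value was not tested.

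Hoxa13, which patterns the foot, had the lowest fold change of the 23 tested members, on the small counts given above. It reached 10 counts only in contralateral replicates 2 and 3, so it entered the test through the group where it was high. The filter thus favours its low rank, and its calls under other settings as well. Scaled, the contralateral libraries stood at 0.262, 0.512 and 0.402 CPM, the tenotomy libraries at 0.190 and 0.0667 CPM and the uninjured libraries at 0.252 and 0.310 CPM. Against contralateral this gave -1.55 ± 0.544 (SE) on the log2 scale, with an edgeR adjusted p of 0.0665. Tenotomy replicate 2, at 2 counts with an exact Poisson interval of 0.242 to 7.22, weighs on this value: without it the log2 fold change was -1.05, and without tenotomy replicate 1 it was -2.51. Among the anterior Hoxa genes, Hoxa3 and Hoxa5, singled out after their values were seen, stood at -0.94 ± 0.363 and -0.94 ± 0.364, both with an edgeR adjusted p of 0.088. Hoxa3 had 24, 16 and 24 counts in contralateral and 14 and 10 in tenotomy libraries, and Hoxa5 9, 18 and 17 against 9 and 7.

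The Hoxd genes stood between these. Hoxd8 was at 2.92, 2.79 and 2.13 CPM in contralateral, 1.77 and 2.27 CPM in tenotomy, and 1.65 and 1.72 CPM in uninjured libraries (-0.38 ± 0.2, edgeR adjusted p 0.188). Hoxd9 was at 1.20, 1.37 and 0.959 CPM in contralateral, 0.816 and 0.833 CPM in tenotomy, and 0.898 and 1.51 CPM in uninjured libraries. Its tenotomy values lie below all contralateral ones (-0.51 ± 0.288, edgeR adjusted p 0.214). Hoxd10, which patterns motor neurons of the lumbar cord, had 11, 8 and 13 counts in contralateral, 11 and 6 in tenotomy, and 6 and 16 in uninjured libraries (-0.44 ± 0.53, edgeR adjusted p 0.574). Hoxd11 had 6, 10 and 6 counts, then 7 and 5, then 6 and 12, and was removed by the filter on low counts. In the Hoxb cluster, all 5 tested genes overlapped between the contralateral and tenotomy libraries. Hoxb3 was at 0.412, 0.427 and 0.217 CPM in contralateral and 0.435 and 0.400 CPM in tenotomy libraries (0.25 ± 0.384, edgeR adjusted p 0.66). In the uninjured libraries it was at 0.503 and 0.654 CPM, above all the others.

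**Figure D3:**
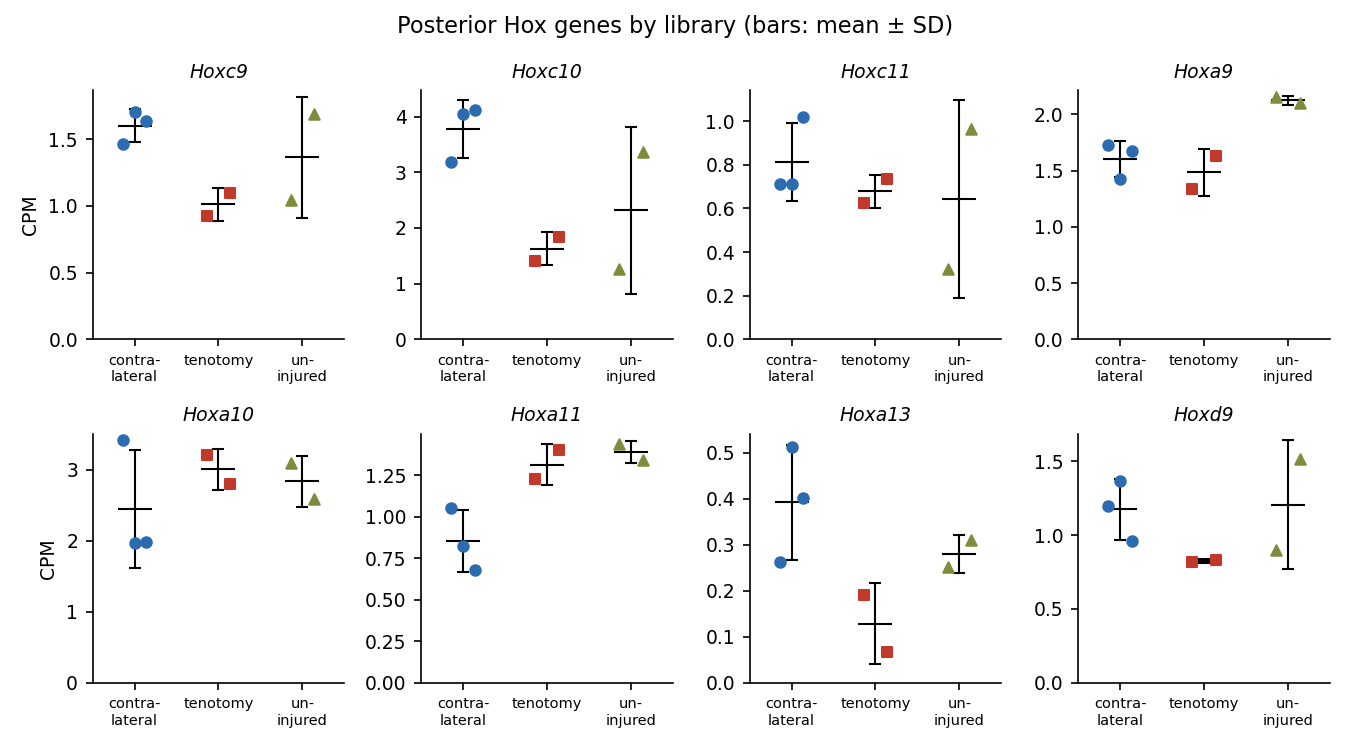
CPM (linear axes from 0) of 8 Hox genes of paralogue groups 9 to 13 in each library, with the group mean and SD (n = 3, 2 and 2). Hoxc10 is 3.19 to 4.11 CPM in contralateral and 1.41 and 1.83 CPM in tenotomy libraries, Hoxa11 is higher in both tenotomy than in all contralateral libraries, and the uninjured libraries lie apart for Hoxc9, Hoxc10, Hoxc11 and Hoxd9.

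Over all 23 tested members, the log2 fold change at the tenotomy site was below 0 in 18 and above 0 in 5, with a median of -0.269. Over all features the median was -0.00121, and 49.9% were above 0. At an unadjusted edgeR p under 0.05, 1 member was higher and 5 lower, where the background was 21% and 22.3% of features. The CPM of the groups did not overlap for 1 member that was higher and 7 that were lower, beside 31.9% and 31.8% of all features. The 7 were Hoxa3, Hoxa5, Hoxa7, Hoxa13, Hoxc9, Hoxc10 and Hoxd9. Upper quartile scaling moved the median of all features from -0.001 to 0.113, and Hoxc10 then stood at -1.11 (edgeR adjusted p 0.0468). Since 16 members could not be tested, these counts do not speak for the family as a whole.

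**Figure D4:**
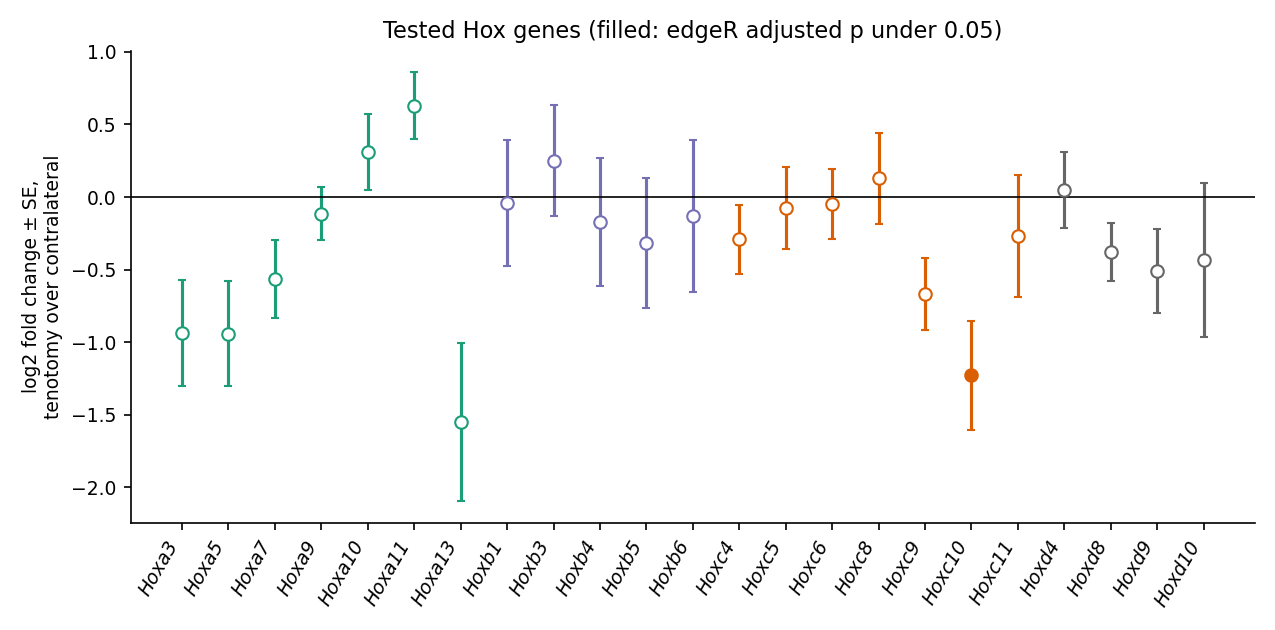
Log2 fold change with SE, tenotomy over contralateral, of the 23 tested Hox genes in cluster and paralogue order, coloured by cluster. The filled point is Hoxc10, the 1 member past an edgeR adjusted p of 0.05; 18 points lie below 0 and 5 above.

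Ratios between paralogues of the same library do not depend on scaling between libraries. The ratio of Hoxc10 to Hoxa10 counts was 0.934, 2.06 and 2.08 in contralateral, 0.441 and 0.655 in tenotomy, and 0.407 and 1.31 in uninjured libraries. The tenotomy ratios lie below all contralateral ones, with contralateral replicate 1 nearest to them. Hoxc9 to Hoxa9 was 0.848, 1.20 and 0.981 in contralateral, 0.694 and 0.673 in tenotomy, and 0.483 and 0.803 in uninjured libraries. Hoxc11 to Hoxa11 was 0.679, 0.862 and 1.5, then 0.511 and 0.524, and 0.225 and 0.718. In counts over all transcripts, each of these 3 pairs had a lower Hoxc to Hoxa ratio in both tenotomy libraries than in any contralateral library, and uninjured replicate 1 had the lowest ratio of all 7. With protein-coding transcripts only, an alternative chosen after seeing the data, Hoxc10 to Hoxa10 was 1.67, 2.96 and 3.5 in contralateral, 1.33 and 1.83 in tenotomy, and 0.547 and 3.06 in uninjured libraries. On that count the contralateral and tenotomy ratios overlap, and the log2 ratio between these groups went from -1.56 to -0.72. These pairs were chosen after the values were seen, and the ratios share their numerator or denominator with the tests above.

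The value of Hoxa10 depended on which of its transcripts was counted. Estimated counts of Hoxa10-203, a processed transcript of 1710 bases that is not annotated as coding, were 37.6, 21.2 and 26.01 in contralateral, 79.5 and 52.4 in tenotomy, and 20.5 and 42.6 in uninjured libraries. The coding transcript of 2565 bases had 21.6, 32.4 and 18.9, then 20.0 and 20.5, then 42.7 and 21.7, and that of 1436 bases 29.3, 15.4 and 19.1, then 18.5 and 9.25, then 20.9 and 10.7. Counting only the coding transcripts, the edgeR log2 fold change of Hoxa10 against contralateral was -0.51, with an adjusted p of 0.309, in place of 0.31. Hoxa10-203 differs from the coding transcripts by its first exon of 128 bases at chr6:52233197-52233324 (minus strand), inside an intron of the coding transcripts. That exon is printed because it is what sets the transcript apart, and only 7.5% of the transcript's 31-base words are its own, so the split between transcripts is uncertain.
Hoxa10-203 first exon: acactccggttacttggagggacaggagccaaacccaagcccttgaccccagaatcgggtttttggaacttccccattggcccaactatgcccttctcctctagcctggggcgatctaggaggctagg

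The second comparison set the tenotomy site against the uninjured group. No member was called by edgeR, DESeq2 or limma-voom. Of all 16028 features, 0% were called by edgeR (0 features), 140 by DESeq2 and 0 by limma-voom. At an unadjusted p under 0.05, 0 members were higher and 1 lower, beside 3.27% and 7.59% of all features. The 1 member was Hoxa9, at 1.33 and 1.63 CPM in tenotomy against 2.16 and 2.10 CPM in uninjured libraries (-0.52 ± 0.197, edgeR adjusted p 0.45). Without uninjured replicate 1 or 2, Hoxa9 was at -0.505 and -0.546 (edgeR adjusted p 0.161 and 0.873). Of the 23 tested members, 17 had a log2 fold change below 0, with a median of -0.408 beside -0.0147 over all features. The groups did not overlap for 2 members that were higher and 8 that were lower, beside 20.1% and 20.4% of all features. Hoxc10 was at -0.52 ± 0.416 (edgeR adjusted p 0.623).

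This comparison changed with the uninjured library used. Against uninjured replicate 2 alone, Hoxc10 was at -1.06 with an edgeR adjusted p of 0.00629 and was the 1 member called, where 11.4% of all features were called higher and 13.7% lower. Against uninjured replicate 1 alone, Hoxc10 was at 0.36 with an adjusted p of 0.949 and no member was called, where 0.0593% of features were called higher and 0.0237% lower. The median over the members tested was -0.505 without uninjured replicate 1 (21 of 27 below 0) and -0.135 without replicate 2 (17 of 25 below 0). Without replicate 1 the groups did not overlap for 4 members that were higher and 13 lower, beside 42% and 42.7% of all features, and without replicate 2 for 6 and 12, beside 35.6% and 36.6%. In both fits the single uninjured library is assumed to vary like the other groups. Tenotomy replicate 2 and uninjured replicate 1 carry title numbers of 1 series, and within it Hoxc10 was at 1.83 and 1.26 CPM.

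The third comparison, contralateral against uninjured, sets uncut legs of mice given burn and left tenotomy beside legs of mice given neither. The parts of burn, tenotomy of the other leg, anaesthesia and buprenorphine cannot be told apart here. Again no member was called by any of these tools, and of all features 0% were called by edgeR, 218 features by DESeq2 and 0 by limma-voom. At an unadjusted p under 0.05, 1 member was higher and 1 lower, beside 8.72% and 10.5% of all features. The higher one was Hoxd8, at 2.13 to 2.92 CPM in contralateral against 1.65 and 1.72 CPM in uninjured libraries (0.63 ± 0.207, edgeR adjusted p 0.222), and at 0.597 and 0.658 without uninjured replicate 1 or 2 (edgeR adjusted p 0.42 and 0.0737). The lower one was Hoxa11, at 0.680 to 1.05 CPM against 1.44 and 1.34 CPM (-0.71 ± 0.234, edgeR adjusted p 0.221), and at -0.67 and -0.766 without uninjured replicate 1 or 2 (edgeR adjusted p 0.45 and 0.073). For both genes the uninjured libraries lay close together and outside the contralateral range. The groups did not overlap for 1 member that was higher and 3 that were lower, beside 18.9% and 16.6% of all features.

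Here too the posterior Hoxc genes followed the uninjured library used. Against uninjured replicate 1 alone, Hoxc10 was 1.59 higher in contralateral libraries on the log2 scale (edgeR adjusted p 0.000551) and Hoxc11 1.33 higher (edgeR adjusted p 0.0411). These were the 2 members called, where 16.9% of all features were called higher and 15% lower. Against uninjured replicate 2 alone, the log2 fold changes were 0.17 for Hoxc10 and -0.24 for Hoxc11, no member was called, and 0.306% of features were called higher and 0.311% lower. Without uninjured replicate 1 the groups did not overlap for 3 members that were higher and 7 lower, beside 29.6% and 26.7% of all features. Without replicate 2 this held for 10 and 6 members, beside 37.9% and 39% of all features. No title series holds both contralateral and uninjured libraries, and no fit with the series as a covariate was made here. The comparisons share libraries, so their values are not independent of each other.

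Sums of several marker lists divided the libraries as Hoxc10 did, and others did not. All 18 tested skeletal muscle markers were called lower at the tenotomy site than in contralateral tendon, as were 2 of 5 muscle stem cell and 3 of 8 adipose markers. Called higher were 11 of 12 leukocyte, 8 of 11 cartilage and 9 of 14 tendon markers, while 1 cartilage marker was called lower. Over all features, 13.6% were called higher and 15.4% lower. The 3 contralateral libraries and uninjured replicate 2, which had the highest muscle sums (16970 to 25300 CPM), also had the highest Hoxc10 levels (3.19 to 4.11 CPM). The tenotomy libraries and uninjured replicate 1 had muscle sums of 1954 to 2504 CPM and Hoxc10 levels of 1.26 to 1.83 CPM. Adipose sums were 138.7 to 185.2 CPM in the former 4 libraries and 63.6 to 67.28 CPM in the latter 3. The sums of 7 Schwann cell markers were 145.3 to 240.0 CPM in the former and 71.29 to 103.7 CPM in the latter, although 2 of the 7 were called higher at the tenotomy site and 0 lower. The sums of 7 proliferation markers were 2.994 to 3.642 CPM in the former and 12.54 to 15.83 CPM in the latter, with 5 of 6 called higher. Endothelial sums overlapped, at 57.87 to 68.84 CPM in contralateral, 62.8 and 51.29 in tenotomy, and 67.34 and 66.62 in uninjured libraries. Erythroid sums were 44.31 to 50.26 CPM in contralateral, 69.76 and 65.36 in tenotomy, and 63.92 and 64.86 in uninjured libraries. No muscle, muscle stem cell, adipose, Schwann cell, proliferation, leukocyte or cartilage marker was at 0 in all libraries. The part of these cell types, and of proliferation, in the Hox levels was not tested.

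**Figure D5:**
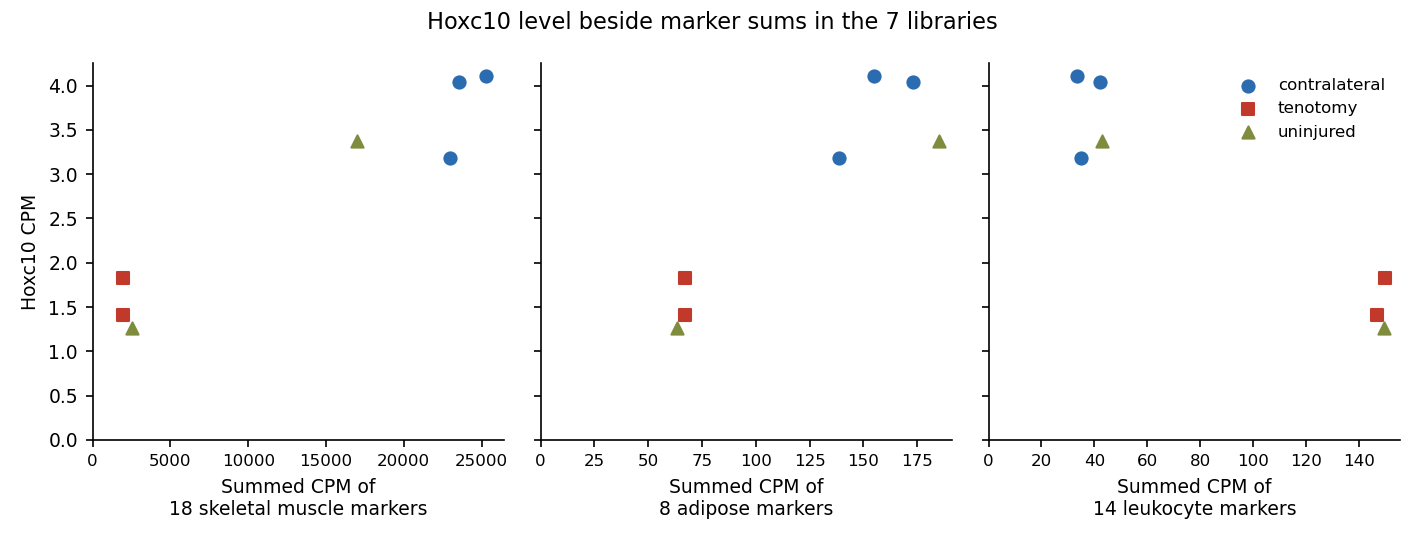
CPM of Hoxc10 (vertical) against the summed CPM of skeletal muscle, adipose and leukocyte markers (horizontal, linear axes from 0) in the 7 libraries. The libraries fall into 2 sets, 4 with Hoxc10 at 3.19 to 4.11 CPM and 3 at 1.26 to 1.83 CPM, and uninjured libraries lie in both.

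The genes that set hindlimb from forelimb identity were read beside the Hox genes. Pitx1, the regulator that makes a limb a hindlimb, had 14, 18 and 14 counts in contralateral, 34 and 20 in tenotomy, and 21 and 18 in uninjured libraries (0.71 ± 0.271, edgeR adjusted p 0.0853). Tbx4, its hindlimb partner, had 9, 14 and 13, then 7 and 7, then 7 and 11 counts (-0.84 ± 0.389, edgeR adjusted p 0.138). Tbx5, the forelimb counterpart of Tbx4, had 9, 13 and 8, then 16 and 20, then 14 and 12 counts (0.77 ± 0.354, edgeR adjusted p 0.138). Isl1, which starts the hindlimb bud, had 11 to 22 counts per library and a log2 fold change of 0.18 ± 0.35. None of these 4 passed the test.

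Of 21 listed genes of limb position, 16 were tested, and 2 were called higher and 2 lower at the tenotomy site against contralateral. Shox2, which builds the upper limb bones, rose by 1.53 ± 0.357 on the log2 scale (edgeR adjusted p 0.0205), with 62, 49 and 54 counts in contralateral, 194 and 150 in tenotomy, and 131 and 56 in uninjured libraries. Gli3, the effector that restrains digit number, rose by 1.13 ± 0.297 (edgeR adjusted p 0.0282). Tbx3 fell by 1.45 ± 0.292 and Tbx15, a gene of muscle and fat progenitors, fell by 1.20 ± 0.222, both with an edgeR adjusted p of 0.0167. Tbx15 had 473, 644 and 687 counts in contralateral, 312 and 244 in tenotomy, and 247 and 408 in uninjured libraries, so uninjured replicate 1 stood lower than replicate 2. The list's median was -0.214, and 29% of all features were called.

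Hox proteins bind DNA with partners of related homeodomain families, and 8 of 9 listed partners were tested. Meis1 had 34, 33 and 45 counts in contralateral, 37 and 35 in tenotomy, and 31 and 44 in uninjured libraries (-0.14 ± 0.253, edgeR adjusted p 0.706). Meis2 had 39, 40 and 25, then 70 and 48, then 48 and 28 counts (0.65 ± 0.323, edgeR adjusted p 0.162). The 1 partner called was Pknox2, which fell by 0.76 ± 0.24 with an edgeR adjusted p of 0.0491. Of all features, 29% were called in this comparison. The Pknox2 call was lost with DESeq2 size factors, upper quartile scaling, DESeq2, limma-voom and TPM-scaled counts, at log2 fold changes of -0.755 to -0.524, and without any 1 contralateral or tenotomy library.

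The non-coding genes of the clusters were scarcer still. Hotair, transcribed opposite the posterior Hoxc genes, had 3, 5 and 2 counts in contralateral, 4 and 10 in tenotomy, and 7 and 9 in uninjured libraries, and Hottip, beside Hoxa13, had at most 1. Neither was tested, and of 16 listed non-coding genes in the files 3 were tested and 0 were called by edgeR in any of the 3 comparisons. The 3 were Hoxa11os, Hoxaas3 and Hoxd3os1, with log2 fold changes against contralateral of 0.52, 0.02 and -0.30. Among 14 genes that flank the clusters, 11 were tested. Of these, 1 was called higher and 2 lower, beside 13.6% and 15.4% of all features. Any link of these calls to the Hox levels was not tested. Lnpk, next to the Hoxd cluster, fell by 1.07 ± 0.216 and Calcoco1, near the Hoxc cluster, fell by 0.976 ± 0.186, both with an edgeR adjusted p of 0.0167. Skap2, next to the Hoxa cluster, rose by 1.29 ± 0.345 (edgeR adjusted p 0.0295). As for all calls in this comparison, those on the limb position and flanking genes were lost without any 1 contralateral or tenotomy library.

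Of the 39 members, 22 were matched by symbol in the promoter sequences of RefSeq on GRCm38.p6, and Hoxc10 was not among them. In the 250 bases before the start site their GC content had a median of 58.6% over 24 promoters, beside 52.4% over 32851 promoters of all genes. They held a median of 12.5 CpG, beside 6. This is a description of the members that matched.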

How the data were processed

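RNA was sequenced from 7 libraries. FastQC 0.11.4 and kallisto were used by the authors, per the submitters' processing notes, which name GRCh38 although all transcript IDs in the files are mouse. Each deposited table gives expected counts (estimated counts, not whole numbers) and TPM per transcript as the authors made them; the annotation release and strand are not given in the sources used here. Of 103639 transcripts per file, 101510 were matched by ID to GENCODE M21 on GRCm38, and estimated counts were summed per gene and rounded. A single edgeR 4.0.16 quasi-likelihood fit (R 4.3.3) with TMM scaling held all 7 libraries, so the 3 groups share 1 estimate of the spread. Features passed filterByExpr with a minimum count of 10, p-values were Benjamini-Hochberg adjusted over 16028 features at 0.05, and SE is the absolute log2 fold change divided by the root of F. The test was checked on simulated counts. Alternatives used DESeq2 1.42.0, limma 3.58.1, other scalings, filters and transcript sets, TPM-scaled counts, and fits without each library.

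Members were taken by symbol. Values are given in every library for members past 0.05, for the highest and lowest per length of each cluster, and for paralogues 9 to 13 of the Hoxa, Hoxc and Hoxd clusters. Partner, limb, non-coding and flanking genes came from lists, of which fixed names and those past 0.05 are named. A few items are not reported here. The members and lists were chosen with earlier results of these data known. Replicate numbers follow accession order. Intervals and floors (3 counts) cover counting error only.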

Additional observations from a re-analysis of the deposited data

How the results depend on the processing

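Low counts limit what can be said: 14 of 39 members were under 10 counts in at least 6 libraries, and 11 were detected with a minimum of 30 counts. No paired analysis was possible because replicate numbers follow accession order and pair no libraries. The count of members called was 1 against contralateral. It was 3 with only the groups compared (Hoxa13, Hoxc9, Hoxc10), where 22.1% of all features were called higher and 24.1% lower. No count is given for the title series as a covariate, where the contrast rests on tenotomy replicate 1 alone. On leaving out 1 library the count was 0 without any contralateral library. It was 4 without uninjured replicate 1 (Hoxa11 higher, Hoxa13, Hoxc9 and Hoxc10 lower), beside 21% and 22% of all features. Without uninjured replicate 2 it was 3 (Hoxa11, Hoxc9, Hoxc10), beside 21.2% and 22.3%. With TPM-scaled counts the 1 member was Hoxa13. It was 0 to 1 for tenotomy against uninjured and 0 to 2 for contralateral against uninjured. The cause of these changes was not tested.

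Signs that turned are given as log2 values. For tenotomy against contralateral, protein-coding transcripts gave -0.512 for Hoxa10 and TPM-scaled counts 0.00972 for Hoxd8. Leaving out 1 library gave ranges of -0.271 to 0.0239 for Hoxa9, -0.00501 to 0.429 for Hoxb3 and -0.000193 to 0.44 for Isl1. For tenotomy against uninjured, protein-coding transcripts gave -0.714 for Hoxa10, and ranges without 1 library were -1.06 to 0.357 for Hoxc10, -0.505 to 1.06 for Hoxc11 (-0.05 without tenotomy replicate 2), -0.0329 to 0.229 for Hoxa10 (-0.0145 without tenotomy replicate 1), -0.183 to 0.0139 for Hoxa11 and -1.1 to 0.229 for Hoxd10. For contralateral against uninjured, TPM-scaled counts gave -0.0374 for Hoxc9, -0.303 for Hoxa3 and -0.186 for Hoxa7, and upper quartile scaling -0.0177 for Hoxa7. Ranges there were -0.0672 to 0.627 for Hoxc9, -0.238 to 1.33 for Hoxc11, -0.363 to 0.39 for Hoxd9 (0.0897 without contralateral replicate 3), -0.681 to 0.66 for Hoxd10 (0.0824 without contralateral replicate 2) and -0.199 to 0.376 for Hoxa7 (-0.0214 without contralateral replicate 3).

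Summed levels moved by more than the spread as follows. Protein-coding transcripts gave -0.29 for the Hoxa cluster against contralateral and -0.56 against uninjured, where TPM-scaled counts gave -0.4. Against contralateral, upper quartile scaling gave -0.05, -0.18 and -0.22 for paralogues 1 to 4, 5 to 8 and 9 to 13, TPM-scaled counts gave -0.27, -0.25 and -0.38, and protein-coding transcripts gave -0.37 and -0.53 for the last 2. Paralogues 1 to 4 gave -0.45 against uninjured with TPM-scaled counts. Paralogues 5 to 8, contralateral over uninjured, gave 0.13, 0.16 and 0.3 under the same 3 settings. Without 1 library, tenotomy over uninjured ranged from -0.5 to 0.06 for the Hoxc cluster, -0.29 to 0.06 for Hoxd and -0.51 to -0.05 for paralogues 9 to 13, and contralateral over uninjured from 0.03 to 0.6 for Hoxc and -0.18 to 0.28 for paralogues 9 to 13. The other 224 values of counts and sums, and 866 of single genes, kept their direction and side of the threshold or stayed within the spread. Of single genes, 52 values in the same direction were no longer past the threshold and 16 newly passed it.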

Other observations

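Polycomb and trithorax proteins keep Hox genes off or on, and 21 of 24 listed members of these complexes and their partners were tested. Against contralateral, 2 were called higher and 3 lower by edgeR at the tenotomy site, with a list median of -0.078, where 13.6% of all features were called higher and 15.4% lower. Men1, the menin subunit of activating complexes, was at 0.81 ± 0.247 (SE, edgeR adjusted p 0.0446) and Pcgf2 at 0.69 ± 0.204 (edgeR adjusted p 0.0405). Bmi1, a paralogue of Pcgf2 in the repressive complex, was at -0.74 ± 0.202 (edgeR adjusted p 0.0322). It had 132, 208 and 228 counts in contralateral, 142 and 99 in tenotomy, and 98 and 132 in uninjured libraries. Cbx7 was at -0.78 ± 0.23 and Ring1 at -0.64 ± 0.2 (edgeR adjusted p 0.0401 and 0.0491). Of these 24 genes, Cdx2 and Cdx4, activators of posterior Hox genes in the embryo, were at 0 in all 7 libraries.

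Over the 23 tested Hox genes, the order of CPM was alike in all libraries, which share gene length as a common factor. Within groups, Spearman's rho was 0.92 (tenotomy), 0.86 to 0.9 (contralateral) and 0.81 (uninjured). It was lowest between contralateral replicate 3 and uninjured replicate 1, at 0.74. Summed by paralogue number, group 10 was the largest in all 7 libraries, and its lead over group 9 was smallest in uninjured replicate 1 (4.563 against 4.24 CPM).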
